A study of Mus musculus with 30 samples.

Results

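Mitochondrial fatty acid oxidation and ketone body metabolism were described through 8 genes of the mouse hippocampus. The genes were Cpt1a and Cpt2 of the carnitine shuttle, the acyl-CoA dehydrogenase genes Acadvl, Acadl and Acadm, the trifunctional protein genes Hadha and Hadhb, and Bdh1 of ketone body metabolism. They are 8 of the 21412 genes in the deposited table, and each symbol matched 1 Ensembl gene. The 8 genes were selected on function with results of these data known. Hadhb is among the features that the study listed for differing between its Ctr, LD and HD mice in RNA and in protein, so the values of those 3 groups took part in the choice. For the 8 genes these values are therefore given as a description, without a test. Tests of the 8 genes are given for Se_HD and Se_LD against Se_Ctr mice, which took no part in the study's own comparisons.

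The hippocampus of 30 male BALB/c mice was sequenced, 5 mice in each of 6 groups and 1 library per mouse. The Ctr, LD and HD mice reached the animal house at 2 to 3 weeks of age, were housed singly, had 5 days to settle and then ate the experimental feed for 11 weeks. Methylmercury (MeHg) was left out of the Ctr feed and added at 0.28 mg per kg for LD and 5 mg per kg for HD mice. The Se_Ctr, Se_LD and Se_HD mice had the corresponding treatments with selenium, which the title of the series names as selenium-methionine. The selenium dose is not given in the sources used here, nor are the feed levels of MeHg, the age, the housing and the duration for the selenium groups. A library held 5768208 to 11510521 reads counted on genes, and libraries are named by the submitters' numbers. The tissue label was checked against its markers. The dentate granule cell gene Prox1 had between 459 and 1341 normalized counts over the 30 libraries and the pyramidal cell gene Neurod6 between 1166 and 2637. Summed normalized counts of 8 markers of the choroid plexus, a neighbouring tissue, ranged from 1301 to 54501, with wide ranges within every group.

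Long-chain fatty acids enter mitochondria as carnitine esters. CPT1 at the outer membrane makes the ester and is the step that malonyl-CoA inhibits, and CPT2 at the inner membrane returns the acyl-CoA to the matrix. Each turn of the cycle starts with an acyl-CoA dehydrogenase chosen by chain length, and for long chains the next steps are run by the trifunctional protein, whose alpha subunit is encoded by Hadha and beta subunit by Hadhb. Ketone bodies are made from acetyl-CoA, and BDH1 converts acetoacetate and beta-hydroxybutyrate into each other. In the brain the oxidation of fatty acids is low and is usually placed in astrocytes, while ketone bodies from the liver are a fuel for neurons during fasting.

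The 2 subunit genes of the trifunctional protein start back to back. In the NCBIM37 build, which is the build of the deposited table, Hadha lies on the minus strand at chr5:30444841-30481702 and Hadhb on the plus strand at chr5:30481788-30511133. The 85 bases between the 2 annotated starts, chr5:30481703-30481787 on the plus strand, are shown because both transcripts start at its ends. Capitals mark the CpG dinucleotides.

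Hadha to Hadhb interval: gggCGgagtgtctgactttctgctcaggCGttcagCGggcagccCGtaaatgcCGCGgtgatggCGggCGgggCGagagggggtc

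The interval had 69.4% G and C and held 9 CpG dinucleotides. Short motifs were searched on both strands in the RefSeq promoter windows of the GRCm38.p6 build, each 300 bases long, which held an entry for all 8 genes. The nuclear receptor site AGGTCA was present in the windows of 3 of the 8 genes, Acadm, Acadvl and Cpt1a, and in 16.3% of all 32851 windows. GCATGCGC, a core of the NRF1 motif, was present for Acadm and in 2.71% of all windows, and CCAAT for Cpt1a and in 37.4%. TCAAGGTCA, which contains AGGTCA, was in no window of the 8 genes and in 0.423% of all windows. None of these letters occurred in the interval between Hadha and Hadhb.

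The 8 transcripts were present in every library. By the length of the merged exons, Bdh1 had 110.5 ± 10.6 normalized counts per kilobase over the 30 libraries (mean ± SD), Hadha 106.2 ± 9.82, Acadl 101.5 ± 13.0 and Acadm 94.2 ± 9.31. These 4 levels lie within about 1 SD of their neighbours in the order. Acadvl followed with 71.8 ± 9.61 and Cpt1a with 67.7 ± 10.4, again within their spread, then Hadhb with 46.3 ± 3.96 and Cpt2 with 16.5 ± 3.59. The place of Hadhb depends on the length used. Its merged exons of 6595 bases include non-coding transcripts, and by its longest protein-coding transcript of 2046 bases it had 149 ± 12.8 per kilobase, beside 141 ± 13.0 for Hadha. The 2 subunits then stood first and second, with Acadm at 135 ± 13.3 and Bdh1 at 134 ± 12.9 after them. By this length, too, these 4 levels lie within about 1 SD of their neighbours in the order. Cpt2 was the lowest of the 8 by both lengths.

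**Figure D1:**
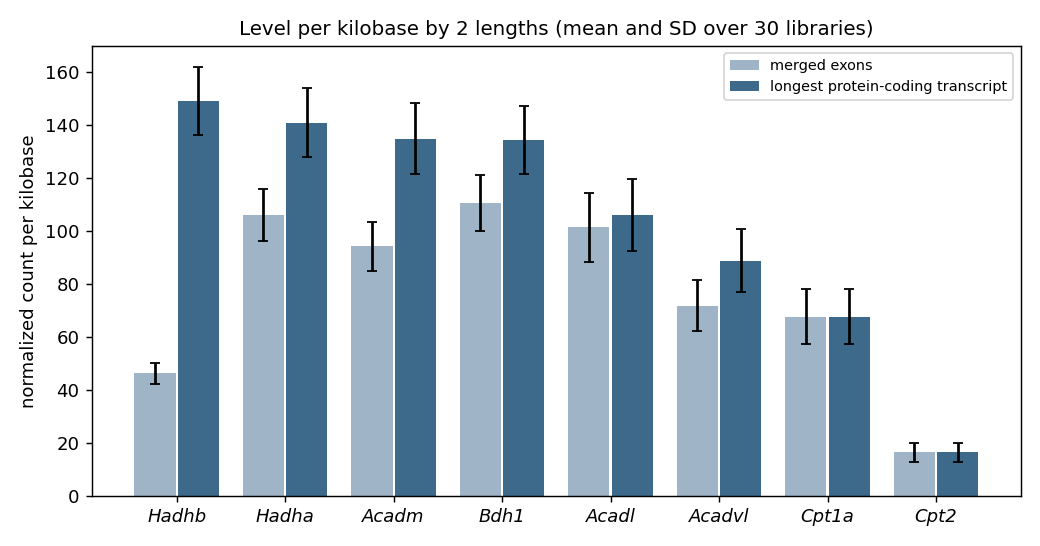
Mean level of each gene over 30 libraries in normalized counts per kilobase, with SD bars, for the length of the merged exons (light bars) and of the longest protein-coding transcript (dark bars). Hadhb moves from 46.3 to 149 between the lengths, and Cpt2 stays lowest at 16.5.

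How closely a change can be read differs between the genes. Cpt2 was counted with 18 to 72 reads per library, and its coefficient of variation within groups was 20.3%, of which counting alone gives 16.0%. Hadha was counted with 306 to 929 reads and varied by 7.44% within groups, and Hadhb with 186 to 425 reads by 7.08%. Cpt1a varied by 16.1% within groups where counting gives 5.88%.

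**Figure D2:**
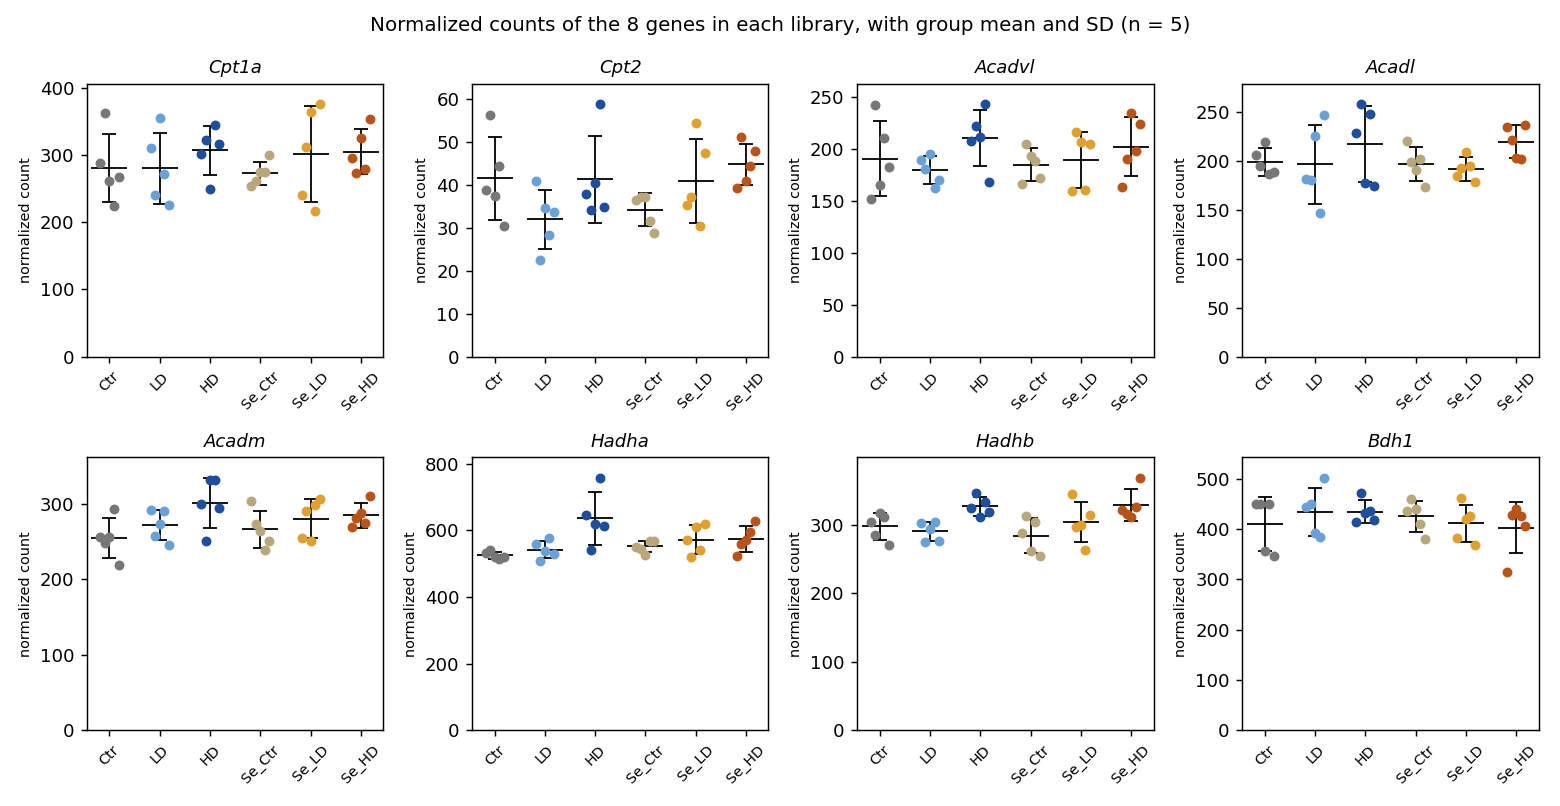
Normalized count of each of the 8 genes in every library (points) by group, with the group mean (long bar) and SD (whiskers), 5 mice per group. The 5 HD points of Hadha lie above its 5 Ctr points, and the 5 Se_HD points of Cpt2 lie above its 5 Se_Ctr points.

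In HD mice without selenium, 7 of the 8 genes had a mean above that of Ctr mice, by up to 0.27 on the log2 scale, and Hadha and Acadm showed the greatest differences. These contrasts took part in the choice of the genes and are descriptions. The median log2 fold change of the 8 was 0.14, beside 0.01 over all 20031 genes tested. A single gene of the 8, Hadha, had groups that did not overlap, a property of 1.71% of all genes in this comparison.

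Hadha, the alpha subunit, had 531, 540, 521, 515 and 521 normalized counts in Ctr mice and 647, 542, 619, 758 and 614 in HD mice. Every HD mouse was above every Ctr mouse, although the lowest HD mouse, library 9 with 542, was just beyond the highest Ctr mouse. The group means were 525 ± 9.89 and 636 ± 78.7 (SD, n = 5), a log2 fold change of 0.27 with an SE of 0.09. The HD values spread more widely than the Ctr values. Library 21 was the highest, and without it the log2 fold change was 0.20.

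Hadhb, the beta subunit, had 304, 285, 316, 312 and 270 normalized counts in Ctr mice and 325, 346, 311, 334 and 318 in HD mice. In HD, 4 of the 5 mice were above every Ctr mouse. The means were 298 ± 19.3 and 327 ± 13.6, and the log2 fold change was 0.14 with an SE of 0.09. The ratio of Hadha to Hadhb in the same library was 1.77 ± 0.13 in Ctr, 1.95 ± 0.25 in HD and 1.75 ± 0.09 in Se_HD mice, with 1.87 ± 0.04 in LD, 1.95 ± 0.18 in Se_Ctr and 1.89 ± 0.18 in Se_LD mice. The mean was thus higher in HD than in Ctr and lower in Se_HD than in Se_Ctr mice, and the ranges overlapped in both pairs.

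Acadm, the medium-chain dehydrogenase, had 256, 248, 255, 293 and 219 normalized counts in Ctr mice and 299, 251, 331, 331 and 295 in HD mice. In HD, 4 mice were above all Ctr mice, and library 9 with 251 was within the Ctr range. The log2 fold change was 0.24 with an SE of 0.11. The very-long-chain gene Acadvl had means of 190 ± 36.1 in Ctr and 210 ± 27.3 in HD mice, and the long-chain gene Acadl 199 ± 14.0 and 217 ± 39.3, with log2 fold changes of 0.15 and 0.11 and SEs of 0.13 and 0.14. Both pairs of groups overlapped. For Acadl, 3 HD mice were above and 2 were below all Ctr mice.

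In the carnitine shuttle, Cpt1a had a mean of 281 ± 51.0 in Ctr and 307 ± 35.9 in HD mice, a log2 fold change of 0.14 with an SE of 0.14. Cpt2 had 41.4 ± 9.67 and 41.2 ± 10.1 and a log2 fold change of -0.01. Bdh1 had 411 ± 53.5 and 435 ± 23.0, a log2 fold change of 0.09 with an SE of 0.10. The 5 Ctr values of Bdh1 were 3 between 449 and 450 and 2 at 347 and 357, and all HD values lay between 414 and 472. Leaving out single libraries moved the log2 fold change of HD against Ctr between 0.060 and 0.23 for Cpt1a, -0.14 and 0.11 for Cpt2, 0.077 and 0.24 for Acadvl, 0.044 and 0.18 for Acadl and 0.032 and 0.13 for Bdh1.

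In LD mice the log2 fold changes against Ctr ran from -0.36 to 0.10, with a median of -0.02. Of the 8, 3 had a higher and 5 a lower mean, and no gene had groups without overlap, beside 0.399% of all genes. The -0.36 was that of Cpt2, with an SE of 0.22. Cpt2 had 40.7, 22.4, 34.5, 28.3 and 33.6 normalized counts in LD mice and 38.6, 56.3, 37.4, 44.4 and 30.4 in Ctr mice. Among the LD mice, 2 were below every Ctr mouse, at 18 and 22 reads.

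**Figure D3:**
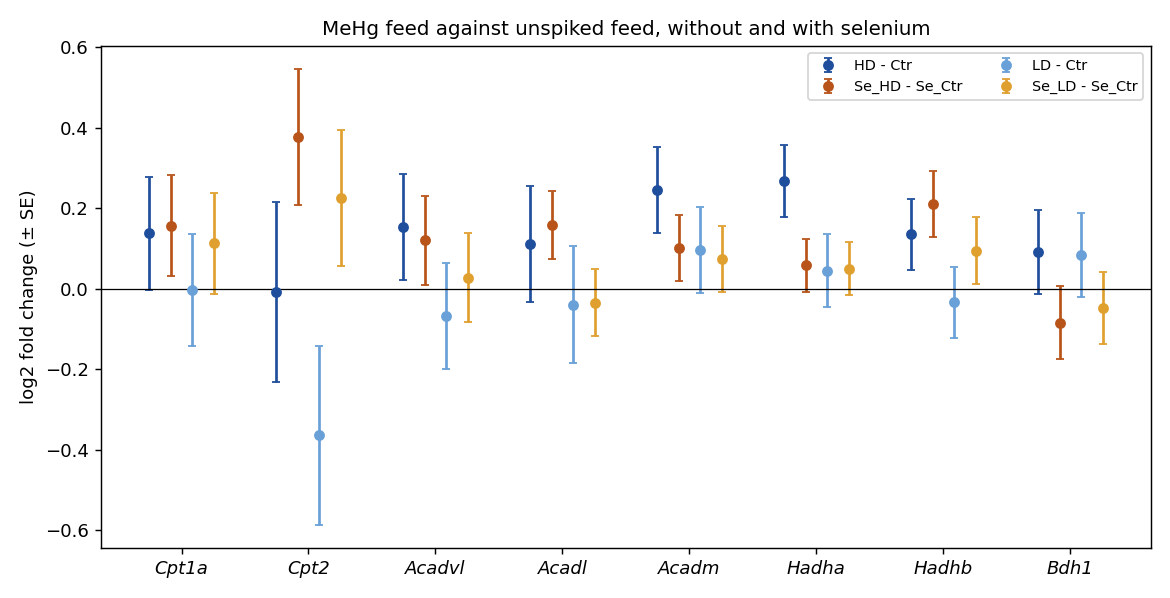
Log2 fold change of each gene with its SE for HD against Ctr, Se_HD against Se_Ctr, LD against Ctr and Se_LD against Se_Ctr, from limma fits of 15 libraries each. Hadha stands at 0.27 for HD and 0.06 for Se_HD, and Cpt2 at -0.01 and 0.38.

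The mice given selenium allowed a test of high-dose MeHg in animals that the study's comparisons did not use. Again 7 of the 8 genes had a higher mean, in Se_HD than in Se_Ctr mice, with a median log2 fold change of 0.14 beside -0.01 over all 19679 genes tested. No gene of the 8 passed limma's test after Benjamini-Hochberg adjustment over all genes, and the adjusted p was 1.00 for each of them. Of all genes, 0% passed. At the unadjusted p under 0.05 that the study used, 2 of the 8 were called, Hadhb and Cpt2, both higher, where 4.19% of all genes were called in either direction. An exact two-sided permutation test of 5 against 5 mice, whose smallest possible p is 0.00794, was also run for each gene, and 3 of the 8 had p under 0.05, where 4.72% of all genes did. The 8 genes are not independent draws from the table, and they were chosen with earlier results known.

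Hadhb had 288, 312, 262, 305 and 254 normalized counts in Se_Ctr mice and 321, 316, 311, 326 and 369 in Se_HD mice. In Se_HD, 4 of the 5 mice were above all Se_Ctr mice, and library 30 was the highest. The means were 284 ± 25.5 and 329 ± 23.1. The log2 fold change was 0.21 (SE 0.08, 95% interval 0.04 to 0.38, exact permutation p = 0.0159). Limma's call at the unadjusted threshold was lost without Se_Ctr library 16 or 28 or Se_HD library 30, with log2 fold changes of 0.18, 0.17 and 0.17.

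Cpt2 had 36.4, 37.0, 37.2, 31.6 and 28.7 normalized counts in Se_Ctr mice and 39.3, 51.1, 40.9, 44.4 and 47.8 in Se_HD mice. All Se_HD mice lay above all Se_Ctr mice, which 0.798% of all genes showed in either direction. The means were 34.2 ± 3.83 and 44.7 ± 4.86. The log2 fold change was 0.38 (SE 0.17, 95% interval 0.03 to 0.73, exact permutation p = 0.00794, the smallest possible). Limma's call was lost with all 30 libraries in the fit, and without Se_Ctr library 22 or 28 or Se_HD library 12, 24 or 30, with log2 fold changes of 0.35, 0.32, 0.33, 0.38 and 0.35. The Se_Ctr mean of Cpt2 was below its mean of 41.4 ± 9.67 in Ctr mice.

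The other 6 genes were not called by limma. Acadl had a log2 fold change of 0.16 with a 95% interval from -0.02 to 0.33 (exact permutation p = 0.0476), and limma called it without Se_Ctr library 4 or Se_HD library 18 or 24, at 0.20, 0.19 and 0.19. The Se_Ctr values of Acadl were 220, 198, 191, 202 and 173 and the Se_HD values 235, 222, 202, 202 and 237, so that 3 Se_HD mice were above all Se_Ctr mice. Cpt1a had 0.16 (-0.11 to 0.42), Acadvl 0.12 (-0.11 to 0.35) and Acadm 0.10 (-0.07 to 0.27). With single libraries left out these ran from 0.10 to 0.19, 0.064 to 0.19 and 0.063 to 0.15, and Hadha from 0.026 to 0.092. Hadha had 0.06 with an interval from -0.08 to 0.20, and 3 Se_HD mice were above and 1 was below all Se_Ctr mice. Whether this differs from HD against Ctr was not tested, because the HD and Ctr mice took part in the choice of the gene. Bdh1 was the gene with a lower mean, with a log2 fold change of -0.08 (-0.27 to 0.10). Its Se_HD values were 406 to 439 in 4 mice and 315 in library 6, and without that library the log2 fold change was 0.0011.

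Low-dose MeHg on the selenium background gave log2 fold changes from -0.05 for Bdh1 to 0.23 for Cpt2. None of the 8 genes had an unadjusted p under 0.05, against 3.31% of all genes, and none had groups without overlap, against 0.503%. By the exact test none of the 8 was called, against 3.44% of all genes. After adjustment 0% of all genes passed. The intervals bounded the differences between -0.24 and 0.58, and the widest was that of Cpt2, from -0.13 to 0.58. Without Se_LD library 17 the log2 fold change of Cpt2 was 0.12, and with single libraries left out that of Bdh1 ran from -0.091 to -0.0093. Choroid plexus markers had a median log2 fold change of -0.97 in this comparison, and none of the 8 markers was called.

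Selenium was also compared with no selenium at each level of MeHg, in a fit of all 30 libraries and 21383 genes. One arm of each of these comparisons took part in the choice of the 8 genes, so for them the values are descriptions. In the absence of MeHg, Se_Ctr and Ctr mice differed by log2 fold changes from -0.25 for Cpt2 (SE 0.19) to 0.07 for Hadha (SE 0.07). Without Ctr library 7 that of Cpt2 was -0.13. Hadha had 551, 545, 526, 567 and 568 normalized counts in Se_Ctr mice, 4 of them above the highest Ctr mouse. At the low dose, Se_LD and LD mice differed by -0.07 for Bdh1 (SE 0.10) to 0.34 for Cpt2 (SE 0.19).

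At the high dose, the log2 fold changes of Se_HD against HD mice ran from -0.14 for Hadha (SE 0.07) to 0.14 for Cpt2 (SE 0.19), and without HD library 21 these were -0.073 and 0.27. Hadha had 523, 560, 570, 595 and 627 normalized counts in Se_HD mice against 542 to 758 in HD mice, so that 1 Se_HD mouse was below all HD mice. Bdh1 had a log2 fold change of -0.12 (SE 0.10), Hadhb 0.01 (SE 0.08) and Cpt1a -0.01 (SE 0.14). The Hadhb transcript thus had nearly the same mean in HD and Se_HD mice, 327 ± 13.6 and 329 ± 23.1, while the Hadha means were 636 ± 78.7 and 575 ± 38.9.

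The pair Hadha and Hadhb was compared over the 30 libraries after subtracting group means. Pearson's r was 0.26 and Spearman's rho 0.37, given as a description because 15 of the libraries took part in the choice of the genes. Without the 2 libraries farthest from the median of Hadha, r was 0.43. Of the 28 pairs of the 8 genes this was the 11th by r, and r ranged from -0.22 for Acadl with Acadm to 0.57 for Cpt2 with Hadha. All pairs come from the same libraries.

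Hippocampus libraries are mixtures, and in bulk tissue fewer cells of a type cannot be told apart from less RNA per cell. Marker lists were therefore followed beside the 8 genes. In HD against Ctr mice, where 8.34% of all genes had an unadjusted p under 0.05, all 10 microglia markers (among them Cx3cr1, Csf1r and C1qa) were higher at that threshold, with a median log2 fold change of 0.95, and all 6 reactive astrocyte markers (among them Gfap and Vim) with a median of 1.37. The summed microglia markers had 2489 to 2757 normalized counts in Ctr mice and 3134 to 7572 in HD mice, and none of the 10 was near 0. In the selenium groups the sums were 2373 to 2949 in Se_Ctr and 2588 to 3046 in Se_HD mice, none of the 10 was called, and the median log2 fold change was 0.07. Reactive astrocyte markers had a median of 0.36 there, and 2 of the 5 tested were called, where 4.19% of all genes were. The 10 astrocyte markers had median log2 fold changes of 0.19 in HD and 0.04 in Se_HD mice, with 2 and 1 called higher. The 10 neuron markers had -0.09 and -0.06, and none was called. The choroid plexus markers had medians of 1.45 in HD and 0.73 in Se_HD mice, and ependyma markers 0.97 and 0.34, with 1 of 8 and 4 of 5 called in HD and none in Se_HD mice. Erythrocyte markers had medians of -0.52 and -0.17, and none was called. In Se_HD against HD mice, where 8.38% of all genes were called, 9 of the 10 microglia markers were called lower (median -0.88), as were all 6 reactive astrocyte markers (median -1.26) and 4 of the 10 astrocyte markers (median -0.21). The part of these in the values of the 8 genes was not tested.

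Library 21 stood apart among the HD mice. It had the highest microglia score of all libraries, 1.54, where a score is the mean over a list of log2 values minus each gene's mean, and a reactive astrocyte score of 3.50 against 0.12 to 1.34 in the other HD mice. It was also the highest HD library for 5 of the 8 genes, Cpt1a, Cpt2, Acadvl, Acadm and Hadha. The mean of the 8 genes, scored the same way, was 0.30 in library 21 and -0.01 to 0.09 in the other HD libraries, against -0.18 to 0.12 in Ctr, -0.16 to 0.00 in Se_Ctr and -0.05 to 0.20 in Se_HD libraries. The microglia scores of the other HD libraries were 0.12 to 1.34. Library 9, at 1.34, had a mean of the 8 genes of 0.09.

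With group means subtracted, the mean of the 8 genes had Pearson r of 0.45 with the microglia score, -0.35 with the neuron score and 0.03 with the astrocyte score (Spearman rho 0.33, -0.31 and 0.04) over 30 libraries. It was 0.54 with the reactive astrocyte and 0.51 with the endothelium score. Without the 2 libraries farthest from the median, the value for microglia was 0.17, so that it rested on those libraries, for reactive astrocytes 0.31, for endothelium 0.45 and for neurons -0.43. For choroid plexus r was 0.51, and 0.56 without the 2 farthest libraries, and for ependyma 0.41 and 0.39. By gene, the choroid plexus r was highest for Acadvl and Cpt1a (both 0.58), 0.46 for Cpt2 and -0.25 for Acadl. It was near 0 for Bdh1 and Hadhb (-0.0042 and 0.041), and 0.076 and 0.24 without the 2 farthest libraries. These are descriptions without a test. All scores come from the same libraries and share their depth.

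**Figure D4:**
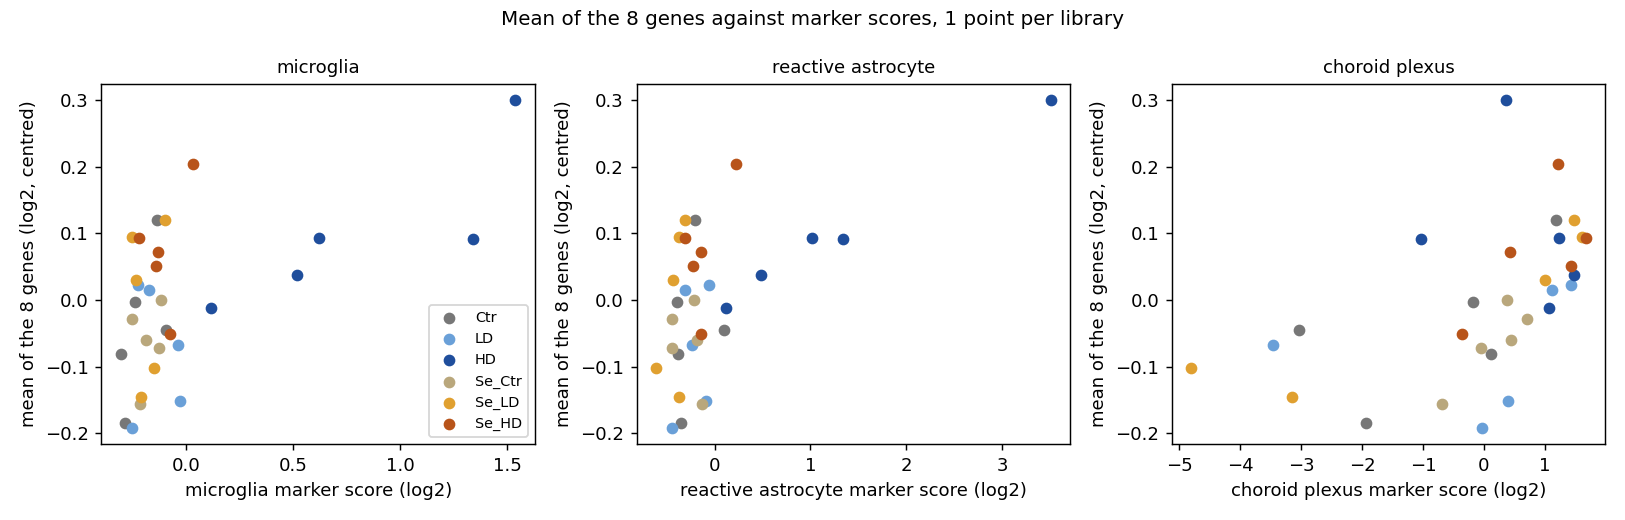
Mean of the 8 genes (log2, each gene centred on its mean) against the microglia, reactive astrocyte and choroid plexus marker scores, 1 point per library, coloured by group. Library 21 of the HD group is the point at the upper right of the first 2 panels, at 1.54 and 3.50, and the libraries with choroid plexus scores under -3 have member means below 0.

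Another 11090 genes reached a mean normalized count of 50. Of these, the pattern most like the mean of the 8 genes over the 30 libraries, with group means subtracted, was that of Ucp2 (r = 0.84), which encodes a mitochondrial carrier. Fxyd1 (0.84), Ltbp3 (0.83), Pbxip1 (0.82) and Ctsa (0.81) followed.

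The rest of the pathway was followed through 55 further genes in 9 lists. Few of them were called. In Se_HD against Se_Ctr mice none was higher and 1 was lower at an unadjusted p under 0.05, which is 1.82% of the 55 against 4.19% of all genes, and none passed limma's adjusted test. The counts were 2 lower in Se_LD against Se_Ctr (3.64% against 3.31%), and 1 higher and 2 lower in Se_HD against HD (5.45% against 8.38% of all genes, of which 0.327% passed adjustment). In Se_Ctr against Ctr and in Se_LD against LD limma called none of the 55 at that threshold, against 4.00% and 2.86% of all genes, and 0% of all genes passed adjustment in either. In HD against Ctr 2 were higher and in LD against Ctr 1 was lower, against 8.34% and 3.01% of all genes. The lists were drawn up with earlier results of these data known.

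Of the genes for the making and use of ketone bodies, the 5 reported besides Bdh1 had a median log2 fold change of 0.02 in Se_HD against Se_Ctr mice and of -0.05 in HD against Ctr mice, and none of them was called. The 2 with the lowest p in Se_HD against Se_Ctr mice were Slc16a7, a monocarboxylate transporter, whose log2 fold change was -0.18 (95% interval -0.48 to 0.13), and Bdh2, a short-chain dehydrogenase, with 0.17 (-0.52 to 0.87).

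**Figure D5:**
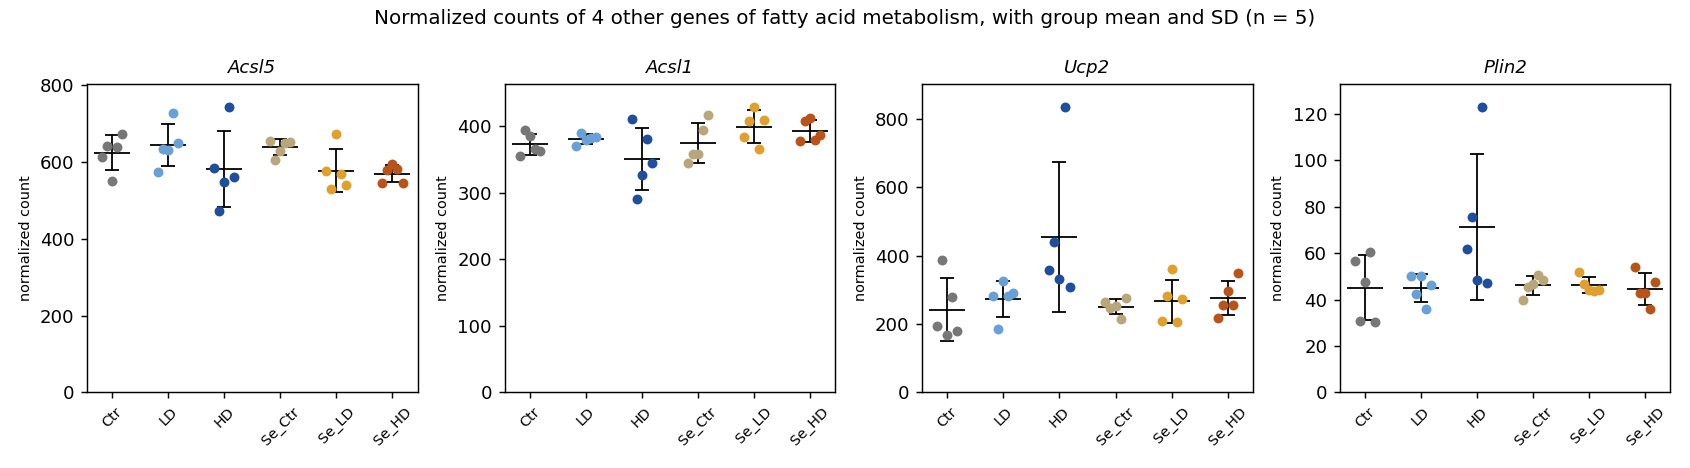
Normalized counts of Acsl5, Acsl1, Ucp2 and Plin2 in every library (points) by group, with group mean and SD, 5 mice per group. The 5 Se_HD points of Acsl5, at 545 to 596, lie below the Se_Ctr points, and library 21 is the highest HD point of Ucp2 at 836 and of Plin2 at 123.

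Among the acyl-CoA synthetases, which activate fatty acids, Acsl5 was lower in Se_HD than in Se_Ctr mice, with 545 to 596 against 606 to 654 normalized counts. These groups did not overlap, which 0.798% of all genes showed in either direction. The log2 fold change was -0.16 (SE 0.07, limma adjusted p = 1.00, exact permutation p = 0.00794), and limma's unadjusted call was lost with all 30 libraries in the fit. It was -0.15 in Se_LD mice (exact permutation p = 0.0635), a call of limma lost with edgeR, with all 30 libraries in the fit, and without Se_Ctr library 4, 22 or 28 or Se_LD library 5, 11, 23 or 29. Acsl1 was higher in Se_HD than in HD mice, by 0.17 (SE 0.08, exact permutation p = 0.111), and limma's call was lost with these 2 groups alone and without HD library 9, at 0.11, HD library 15 or 27, or Se_HD library 12 or 18. Acsl5 and Acsl1 were named for low p values in these comparisons, so those p values are not independent support.

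Among the targets of PPAR receptors outside the cycle, Ucp2 and Plin2, which encodes a lipid droplet coat protein, were the 2 pathway genes called in HD against Ctr mice. Ucp2 had 167 to 386 normalized counts in Ctr and 307 to 836 in HD mice, a log2 fold change of 0.88 (SE 0.25). Plin2 had 30.4 to 60.5 in Ctr and 47.1 to 123 in HD mice, a log2 fold change of 0.61 (SE 0.26), and library 21 was the highest for both. Both were named after their values in these groups were seen, so their values are descriptions. The call of Plin2 was lost without Ctr library 7 or 25 or HD library 9 or 21, and its log2 fold change was 0.39 without library 21. Both were lower in Se_HD than in HD mice, by log2 fold changes of -0.63 and -0.58, and in Se_HD against Se_Ctr mice they had 0.12 and -0.06. Without library 21 the call of Plin2 for Se_HD against HD was lost, at -0.37, and Ucp2 had -0.39 there. Microglia also express Ucp2, and the microglia markers were higher in HD than in Ctr and lower in Se_HD than in HD mice, as given above. The part of microglia in the values of Ucp2 was not tested. Cd36, a fatty acid transporter, was lower in Se_LD than in Se_Ctr mice, by a log2 fold change of -0.65 (SE 0.28, exact permutation p = 0.0476), at 6.3 to 22.5 normalized counts, a call lost with edgeR, with DESeq2, with all 30 libraries in the fit, and without Se_Ctr library 16 or Se_LD library 11 or 17. In Se_HD against Se_Ctr mice it had the opposite sign, 0.51 (exact permutation p = 0.0635), and was not called. Cd36 was named for low p values in these comparisons, so those p values are not independent support. Acot1 had -0.30 in Se_HD against Se_Ctr mice (exact permutation p = 0.0952).

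The remaining lists held no called gene in Se_HD against Se_Ctr mice, and their values are given for the genes with the lowest p. In the other steps of the cycle these were Eci1, an enoyl-CoA isomerase, with a log2 fold change of 0.26, and Hadh, the short-chain hydroxyacyl-CoA dehydrogenase, with 0.16. The list of 8 had a median of 0.07 in Se_HD against Se_Ctr mice and of 0.11 in HD against Ctr mice. The electron transfer flavoprotein genes Etfa and Etfb had 0.11 and 0.05, and the carnitine genes Slc22a5, the plasma membrane carrier, and Cpt1c, the neuronal form of CPT1, 0.15 and 0.03. The acetyl-CoA carboxylase genes Acaca and Acacb, whose product malonyl-CoA inhibits CPT1, had 0.10 and 0.41. The peroxisomal genes Abcd2 and Scp2 had -0.14 and 0.09, and the regulators Pparg and Ppargc1b -0.22 and -0.26. Rxra, the partner receptor of the PPARs, was the 1 pathway gene called in LD against Ctr mice, with a log2 fold change of -0.33 (SE 0.11), a description because it was named after this value was seen.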

How the data were processed

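Hippocampus RNA of 30 mice was sequenced by the authors as stranded single-end libraries. Per the submitters' notes and the study's methods, reads were trimmed with Trim Galore 0.4.2, mapped with HISAT2 to NCBIM37, counted with featureCounts, filtered on row sums and divided by DESeq2 size factors. The deposited values are therefore signal values, read counts divided by 1 factor per library, called normalized counts. All of them (100%, tolerance 0.01 reads) were whole multiples of 1 read, and whole reads were recovered for edgeR 4.0.16 and DESeq2 1.42.0.

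The 8 genes and all lists were chosen with earlier results of these data known. limma 3.58.1 with trend (R 4.3.3) was run on log2(normalized count + 1) for genes with a sum of at least 10, with 1 coefficient per group, over 15 libraries per diet or all 30 for selenium effects. Benjamini-Hochberg adjustment ran over every gene tested. Exact permutation tests of single genes were added after seeing the data. The 8 genes got no p in contrasts with Ctr, LD or HD mice, whose values took part in their choice (a test of Se_Ctr, Se_LD and Se_HD against these had been planned), and scores and correlations of them got none, although permutation tests of these had been planned. Replicates were separate mice.

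Some pathway genes are not reported here and are left out of the lists. Pathway genes were named where an adjusted p was under 0.05 in a tested contrast, otherwise as the 2 lowest p in Se_HD against Se_Ctr of each list. Acsl5, Cd36, Acsl1, Ucp2, Plin2 and Rxra are also named for an unadjusted p under 0.05, a choice made after their values were seen for Ucp2, Plin2 and Rxra. Alternatives were other pseudocounts (0.1 and 10), a filter on a mean of 10 or no filter, quantile normalization, edgeR, DESeq2, other sets of libraries in the fit, sets of 6 library numbers as a block, and each library left out. The transcript length was added after seeing the data. The methods were tested on simulated data. Tables were made with pandas and numpy.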

Additional observations from a re-analysis of the deposited data

Results flagged for a closer look

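Single libraries stood far from the other 4 of their group, by the gap to the nearest library as a share of the group's range, in 13 of 174 gene and group combinations. Chance gives about 1 in 20, which is 8.7 of 174. The 8 genes account for 3 of the 13. Cpt2 had 58.8 normalized counts in HD library 21 against 34.2 to 40.4 in the others (share 0.748), Hadhb 369 in Se_HD library 30 against 311 to 326 (0.749), and Bdh1 315 in Se_HD library 6 against 406 to 439 (0.733).

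Among the other pathway genes, Acot1 had 122 normalized counts in HD library 21 (0.805) and 51.0 in Se_LD library 17 (0.757), Acaca 708 in Ctr library 13 (0.819) and Etfb 177 in Se_Ctr library 28 (0.791). Slc22a5 had 50.9 in Se_LD library 5 (0.749), Cpt1c 1166 (0.885) and Ppargc1b 59.5 (0.856) in Se_HD library 24, and Pparg 2.3 in Ctr library 25 (0.781). Rxra had 256 in Ctr library 7 (0.781) and Ucp2 836 in HD library 21 (0.75).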

How the results depend on the processing

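None of the 16 tests of the 8 genes had an adjusted p under 0.05 under any of 9 alternatives per contrast or with any library left out. Of 1064 recomputed fold changes of the 8 genes over all 7 contrasts, 44 changed sign, 6 of them in the 2 tested contrasts and 38 in the others, and 41 of the 44 with a library left out. The other 3 were Acadl in Se_Ctr against Ctr, at 0.00029 with edgeR, and Cpt1a in LD against Ctr, -0.0031 otherwise, with edgeR and DESeq2.

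Leaving out single libraries gave these ranges of log2 fold changes that cross 0 in the tested contrasts. For Se_HD against Se_Ctr they were -0.12 to 0.0011 for Bdh1, -0.052 to 0.32 for Bdh2, -0.011 to 0.066 for Cpt1c and -0.018 to 0.10 for Etfb. For Se_LD against Se_Ctr they were -0.023 to 0.086 for Acadvl and -0.081 to 0.0058 for Acadl. In the contrasts without a test, 13 of 40 fold changes of the 8 genes changed sign, all of them between -0.07 and 0.06 with all libraries.

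Of the 8 genes, the number with an unadjusted p under 0.05 in Se_HD against Se_Ctr was 2, and 1 with all 30 libraries in the fit, 3 by exact permutation, and 0 to 3 with a library left out. Over all genes, the number in LD against Ctr was 603, and 284 with a mean of at least 10, 396 with DESeq2 and 1001 with all 30 libraries in the fit. In Se_LD against Se_Ctr it was 652, and 419 with all 30 libraries and 490 to 1081 with a library left out. With a mean of at least 10 it was 453 for Se_Ctr against Ctr (855 otherwise) and 355 for Se_LD against LD (611 otherwise), where fewer genes were tested. The cause of the other changes was not tested.

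Library numbers in sets of 6 were tried as a replicate block. Libraries of 1 set did not deviate together (median correlation -0.02 over 75 pairs), and the block changed no call of the 8 genes. Counting error limits Cpt2 most.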
